A study of Mus musculus with 4 samples.

Results

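The ErbB receptors and the neuregulins are a family of 8 genes, 4 receptors (Egfr, Erbb2, Erbb3 and Erbb4) and 4 ligands (Nrg1, Nrg2, Nrg3 and Nrg4). They were found by gene symbol among the 24100 genes of the count tables, and all 8 were present. Their RNA was compared between whole prefrontal cortex and ribosomes captured by translating ribosome affinity purification (TRAP), in which EGFP-tagged polysomes are pulled down with antibodies against EGFP. All libraries came from untreated adult male Crh-IRES-Cre mice, in which the Crh locus (corticotropin-releasing hormone) also drives Cre recombinase. There was 1 Input library and there were 3 immunopurified (IP) libraries, each pooled from 5 males. The sources used here do not name the allele or virus that carried the EGFP tag, the strain or the age in weeks. Separate animals behind the IP libraries are not stated in the labels, and p-values therefore reflect the spread among these libraries alone, part of which may be technical.

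ErbB receptors are tyrosine kinases of the cell surface that pair up when a ligand with an EGF-like domain binds, and then recruit adaptors that feed the MAP kinase and PI3 kinase pathways. Neuregulins are made mostly as membrane-anchored precursors that proteases cut, and they act through ErbB3 and ErbB4. ErbB2 has no known ligand of its own and serves as a partner, while ErbB3 has little kinase activity. In the cortex ErbB4 is known above all from GABAergic interneurons, where it takes part in their migration and in the formation of their synapses.

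Total counts were 14474529 in the Input and between 10031072 and 23548375 in the 3 IP libraries. Levels are CPM, that is counts scaled to a common library size with TMM factors, and 1 count was worth 0.0600 CPM for the Input library, 0.0436 CPM for IP 1, 0.107 CPM for IP 2 and 0.0862 CPM for IP 3. Crh itself measured 1.32 CPM in the Input library and 501, 174 and 193 CPM in IP 1, 2 and 3. The summed level of 7 GABAergic markers, among them Gad1, was 630 CPM in the Input library and ranged over 2854 to 3748 CPM in IP, with 7 of 7 above the Input in all 3. For 6 markers of Vip cells and other interneurons from the caudal ganglionic eminence (CGE) the sum was 529 CPM against 3708 to 5824 CPM, with 6 of 6 above. For 6 markers of excitatory neurons it was 1644 CPM against 543.9 to 1065 CPM, with 4 of 6 below in all 3. In such bulk libraries fewer cells of a type and less RNA per cell cannot be told apart. IP is RNA from captured ribosomes and the Input is RNA from whole tissue. Differences in ribosome binding and carry-over of untagged RNA therefore cannot be separated from these either.

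Erbb4 and Egfr were the members higher than the Input in every IP library, so the 250 bases upstream of their RefSeq starts (GRCm38.p6) are shown, 5′ to 3′ on the gene's strand. These lie at chr1:69108060-69108309 on the minus strand for Erbb4 and at chr11:16751953-16752202 on the plus strand for Egfr. Capitals mark the motifs searched on both strands, TATAAA (the TATA box), CCAAT (the CCAAT box), GGGCGG (the GC box) and TAATTA (a core bound by many homeodomain proteins).
Erbb4: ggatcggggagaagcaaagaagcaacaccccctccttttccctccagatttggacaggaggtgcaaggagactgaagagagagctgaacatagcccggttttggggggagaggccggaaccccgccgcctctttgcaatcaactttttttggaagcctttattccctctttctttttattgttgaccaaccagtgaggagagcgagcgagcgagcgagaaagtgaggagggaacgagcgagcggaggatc
Egfr: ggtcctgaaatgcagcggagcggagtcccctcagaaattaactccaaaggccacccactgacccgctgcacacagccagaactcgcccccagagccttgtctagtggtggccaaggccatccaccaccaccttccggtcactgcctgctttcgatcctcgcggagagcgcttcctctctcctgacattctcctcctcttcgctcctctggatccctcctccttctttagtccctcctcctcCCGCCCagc
The Egfr stretch held 1 match, to GGGCGG on the opposite strand, a motif that 32.7% of 32851 such stretches hold. No match was found in the Erbb4 stretch. The other motifs occurred in 12.4% (TATAAA), 33.8% (CCAAT) and 4.84% (TAATTA) of all stretches. G and C made up 54% of the Erbb4 bases and 60.8% of the Egfr bases, beside a median of 52.4% over all stretches. The Erbb4 stretch held 12 CG pairs and the Egfr stretch 11, beside a median of 6.

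Erbb4 (Entrez 13869, chromosome 1, 68032186 to 69108059 in GRCm38, minus strand, protein coding) encodes the receptor for all 4 neuregulins. It measured 144 CPM (2401 counts) in the Input library, against 781, 677 and 591 CPM in IP 1, 2 and 3 (17908, 6332 and 6858 counts). Every IP library thus lay at least 591 CPM against 144 CPM, and the 3 of them were close together, with the highest 1.32 times the lowest. Erbb4 rose to a mean of 683 ± 94.8 CPM (SD, n = 3), 4.74 times the Input. Its log2 fold was 2.25 ± 0.42 (SE, 95% interval 1.36 to 3.13, edgeR's quasi-likelihood test with Benjamini-Hochberg adjustment over 14636 genes, adjusted p = 0.0125). The 1 Input gives no spread of its own, and the test assumes that an Input varies as the IP libraries do. Erbb4 was past the threshold of 0.05 in all 11 alternative fits, with log2 folds of 1.97 to 2.34 and adjusted p-values of 9.41e-06 to 0.0286. The lowest of these came without IP 1, a fit that assumes more degrees of freedom than the main fit. All 11 fits reuse the 1 Input, so they cannot show how far the call depends on it.

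**Figure D1:**
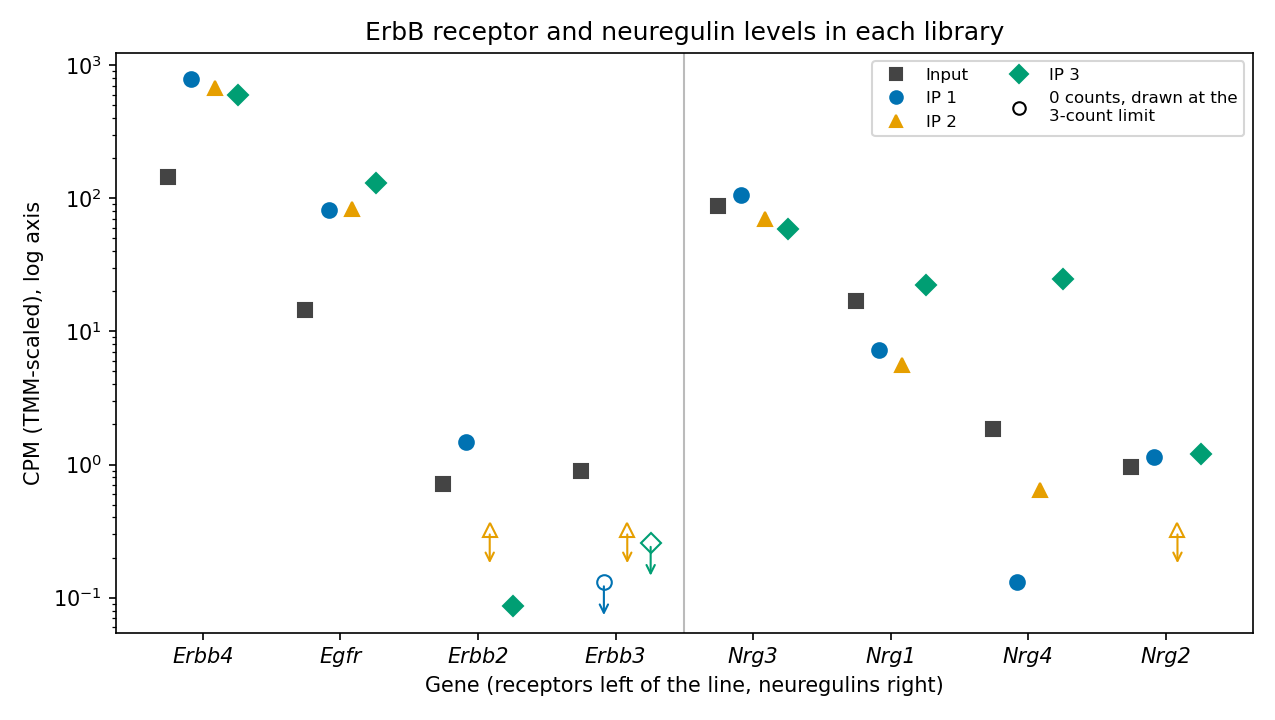
Level of each ErbB receptor and neuregulin gene in CPM on a log axis, with 1 point for the Input and 1 for each IP library, and open symbols with arrows for 0 counts, drawn at the level of 3 counts. Erbb4 and Egfr lie above the Input in all 3 IP libraries, Erbb3 has 0 counts in all 3, and Nrg4 is high in IP 3 only (24.7 CPM against 0.131 and 0.642 CPM).

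Erbb4 was 1 of 8 members past the adjusted threshold of 0.05 and higher in IP, beside 0.41% of all genes tested, and 0 members were past it and lower (0.0478% of all genes). Above the Input in all 3 IP libraries were 2 members (19.7% of all genes) and below it in all 3 was 1 (24.1%). These counts over 8 members are a description and show nothing particular to the family. The median log2 fold was -0.22 over the 8 members and 0.083 over all genes tested. By rank of log2 fold among 14636 genes, Egfr was at 439, Erbb4 at 636 and Nrg4 at 660 from the top. The rank of Nrg4 rests on IP 3, without which its log2 fold was -2.29.

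Egfr (Entrez 13649, chromosome 11, 16752203 to 16918158, plus strand) encodes the EGF receptor, known for driving growth of epithelial and glial progenitor cells. It measured 14.6 CPM (243 counts) in the Input library, against 81.3, 82.3 and 130.0 CPM in IP 1, 2 and 3 (1866, 770 and 1508 counts). All IP libraries lay above the Input, and IP 3 above the other IP libraries. Its IP libraries averaged 97.9 ± 27.8 CPM (SD, n = 3), with a fitted log2 fold of 2.75 ± 0.73 (SE, 95% interval 1.22 to 4.27) that did not pass (edgeR adjusted p = 0.176, unadjusted p = 0.00130). DESeq2 called it (log2 fold 2.76, adjusted p = 0.000323), beside 1.14% of all genes called higher by that tool. It was also called by edgeR without IP 1 (log2 fold 2.84, adjusted p = 0.0215), a fit in which 1.29% of all genes were called higher. Limma-voom did not call it (adjusted p = 0.468). In edgeR without IP 1 the log2 fold over its SE was no larger than with all 3 IP libraries (SE 0.778 against 0.729). The lower p-value of that fit came with more assumed degrees of freedom, not with less spread.

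Markers of other cell types that can carry Egfr moved in both directions. Summed over 6 astrocyte markers the level was 258 CPM in the Input library and ranged over 75.4 to 148 CPM in IP, with 6 of 6 below in all 3 and none at 0 in any library. Endothelial and mural markers were higher, at 68.4 CPM in the Input library against 172, 446 and 224 CPM in IP 1, 2 and 3, with 5 of 6 above in all 3 and 0 of 6 past the edgeR threshold. Of 6 markers of oligodendrocyte precursors 2 lay above the Input in all 3 and 4 below, and their sum was 116 CPM against 59.7 to 104 CPM. Of the astrocyte markers 0 of 6 passed the edgeR threshold, and of the precursor markers 0 of 6. Aqp4, counted as below, measured 57.4 CPM in the Input library against 57.0 CPM in IP 1. Over all genes tested 19.7% lay above the Input in all 3 IP libraries and 24.1% below. The part of these cell types in the level of Egfr was not tested.

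Erbb2 and Erbb3 were near the limit of detection. Erbb2, the gene of the partner receptor without a ligand, measured 0.720 CPM (12 counts) in the Input library, against 1.48, 0 and 0.0862 CPM in IP 1, 2 and 3 (34, 0 and 1 counts), so the IP libraries lay on both sides of the Input. The 0 in IP 2 allows up to 3 counts, or 0.321 CPM, and such limits cover counting error only. Its 95% interval of the log2 fold ran from -7.24 to 6.40, so no difference could be seen at this depth.

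Erbb3, known from the oligodendrocyte lineage and other glia, had 15 counts in the Input (0.900 CPM, exact Poisson 95% interval 0.503 to 1.48 CPM) and 0 counts in IP 1, 2 and 3. Counted over the IP group, 3 counts amount to 0.0683 CPM. This limit lies 13.2-fold below the Input value and 7.37-fold below the lower end of the Input interval. Both figures cover counting error only. The fitted 95% interval of the log2 fold ran from -14.9 to 1.32 and so included no difference. The gene did not pass (edgeR adjusted p = 0.9999, unadjusted p = 0.0953), and it was tested only because the Input alone reached the level of the low-count filter. Summed over 6 markers of oligodendrocytes the level was 473 CPM in the Input library and ranged over 199 to 271 CPM in IP, with 4 of 6 below in all 3. Opalin, chosen like Mag after its values were seen, measured 5.10 CPM in the Input library (85 counts) and had 2, 0 and 0 counts in IP 1, 2 and 3. Mog was at 8.52 CPM against an IP mean of 1.69 ± 0.70 CPM, and Mag lay above the Input in all 3, at 5.28 CPM against 10.6 ± 1.98 CPM. Of the 6 oligodendrocyte markers 0 passed the edgeR threshold. The part of these cells in the level of Erbb3 was not tested.

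**Figure D2:**
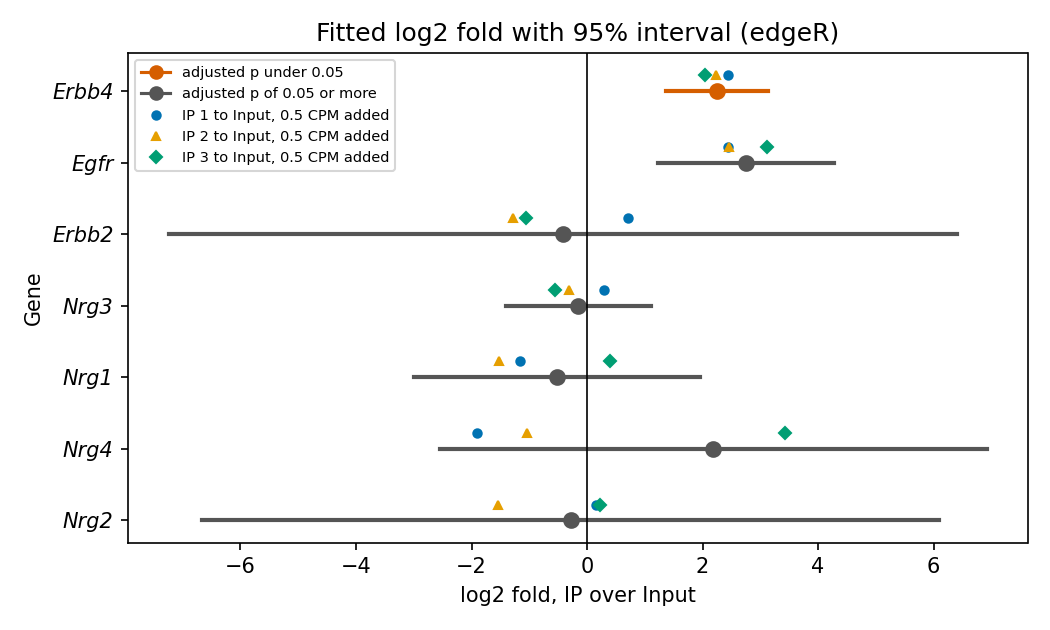
Fitted log2 fold of IP over Input with its 95% interval for 7 members, with small symbols above each for the log2 ratio of single IP libraries to the Input (0.5 CPM added). Erbb3, at 0 in all IP libraries, is left out because its fitted fold depends on the prior count. Only the interval of Erbb4 belongs to a gene past the adjusted threshold, and the Nrg4 ratios run from -1.90 to 3.42.

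Nrg3 was the most abundant neuregulin. The gene (Entrez 18183, chromosome 14, 38368952 to 39473088, minus strand) encodes a ligand of ErbB4 that is made mostly in the nervous system. It measured 86.8 CPM (1447 counts) in the Input library, against 106, 69.8 and 59.1 CPM in IP 1, 2 and 3 (2428, 653 and 685 counts). IP 1 lay above the Input and the other IP libraries below it. The IP libraries averaged 78.2 ± 24.5 CPM (SD, n = 3), with a log2 fold of -0.15 ± 0.60 (SE, 95% interval -1.40 to 1.10, edgeR adjusted p = 0.9999). That interval ends below the fitted log2 fold of Erbb4, but the difference between these genes was not tested.

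Nrg1 (Entrez 211323, chromosome 8, 31814551 to 32884029, minus strand) encodes the founding ligand of the family, with many isoforms that gene counts do not separate. It measured 16.9 CPM (281 counts) in the Input library, against 7.28, 5.56 and 22.2 CPM in IP 1, 2 and 3 (167, 52 and 258 counts). IP 1 and IP 2 thus lay below the Input and IP 3 above it. The log2 fold was -0.53 ± 1.18 (SE, edgeR adjusted p = 0.9999), with a 95% interval of -3.004 to 1.95. An antisense gene model shares 4.66% of its exon bases.

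Nrg4 (Entrez 83961, chromosome 9, 55220222 to 55326844, minus strand) encodes a ligand that binds ErbB4. It measured 1.86 CPM (31 counts) in the Input library, against 0.131, 0.642 and 24.7 CPM in IP 1, 2 and 3 (3, 6 and 287 counts). IP 3 was thus 189 times IP 1, and the other IP libraries lay below the Input. For scale, across the 8881 genes with an IP mean of at least 10 CPM the highest IP library was a median of 2.04 times the lowest, with a 90th percentile of 5.38. In 35 of those genes that ratio was at least as large as that of Nrg4, 22 of them with a 0 in an IP library, for which it has no upper limit. Nrg4 itself, with an IP mean of 8.51 CPM, is not in that set. With all 3 IP libraries the log2 fold was 2.19 ± 2.26 (SE, edgeR adjusted p = 0.9999), and without IP 3 it was -2.29. Of the exon bases of Nrg4 8.97% lie opposite Fbxo22 and Gm15625. Fbxo22 measured 31.1 CPM (518 counts) in the Input library, against 7.37, 15.3 and 12.2 CPM in IP 1, 2 and 3 (169, 143 and 142 counts). The part of such reads in the level of Nrg4 was not tested. Nrg2, another ligand of ErbB3 and ErbB4, had 16 counts in the Input (0.959 CPM) and 26, 0 and 14 counts in the IP libraries (1.13, 0 and 1.21 CPM). Its IP libraries lay on both sides of the Input, and the 0 in IP 2 allows up to 0.321 CPM.

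Levels of different genes were compared as CPM per kb of exon, with the exons of all GENCODE M21 transcripts of a gene merged. In the Input the order was Nrg3 (12.7), Erbb4 (11.7), Nrg1 (1.63), Egfr (1.29), Nrg4 (0.306), Nrg2 (0.306), Erbb3 (0.150) and Erbb2 (0.138). In IP it was Erbb4 (55.3 ± 7.67, SD, n = 3), Nrg3 (11.5 ± 3.59), Egfr (8.64 ± 2.46), Nrg4 (1.40 ± 2.32), Nrg1 (1.13 ± 0.887), Nrg2 (0.249 ± 0.216) and Erbb2 (0.100 ± 0.160), with Erbb3 at 0. The IP values of Erbb4 did not overlap those of any other member. Nrg3 and Egfr overlapped, at 8.66 to 15.5 and 7.18 to 11.5 CPM per kb, and Nrg4, at 0.0215 to 4.07, overlapped both Nrg1 (0.537 to 2.15) and Nrg2 (0 to 0.385), while Nrg1 and Nrg2 did not overlap each other. Among 13947 genes with a length, Erbb4 stood at percentile 76.7 of CPM per kb in the Input and 95.4 in IP. Egfr stood at percentile 26.3 in the Input and 66.4 in IP, and Nrg3 at 78.5 and 72.7.

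Summed over the receptors, the level was 13.2 CPM per kb for the Input, against 70.6, 62.1 and 59.4 for IP 1, 2 and 3. For the neuregulins it was 15.0 CPM per kb for the Input, against 16.6, 10.9 and 15.3 for the IP libraries. The receptor sum was thus higher in every IP library, while the ligand sum lay on both sides of the Input.

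Within the receptors Erbb4 held the largest share in every library. By counts per kb it made up 88.1% in the Input, against 89.4%, 88.3% and 80.6% in IP 1, 2 and 3 (86.1 ± 4.79%, SD, n = 3). The share of Egfr was 9.73% in the Input, against 10.2%, 11.7% and 19.3% in the IP libraries, so the gap to the Input was widest in IP 3. Without division by length the share of Erbb4 was 89.9% in the Input (95% Wilson interval 88.7 to 91.0%, 2671 counts) and 82.0% in IP 3 (81.1 to 82.8%, 8367 counts), and these intervals cover counting error only.

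Among the neuregulins Nrg3 made up 85.0% by counts per kb in the Input, against 93.5%, 94.1% and 56.7% in IP 1, 2 and 3. In IP 3 Nrg4 took 26.7% and Nrg1 14.1%, against 0.130% and 4.23% in IP 1. The 95% Wilson interval of the Nrg3 share of counts was 52.3 to 57.8% in IP 3 and 89.6 to 93.6% in IP 2, which covers counting error and not the spread between libraries. IP 3 is 1 library, and its difference from the others was not tested.

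**Figure D3:**
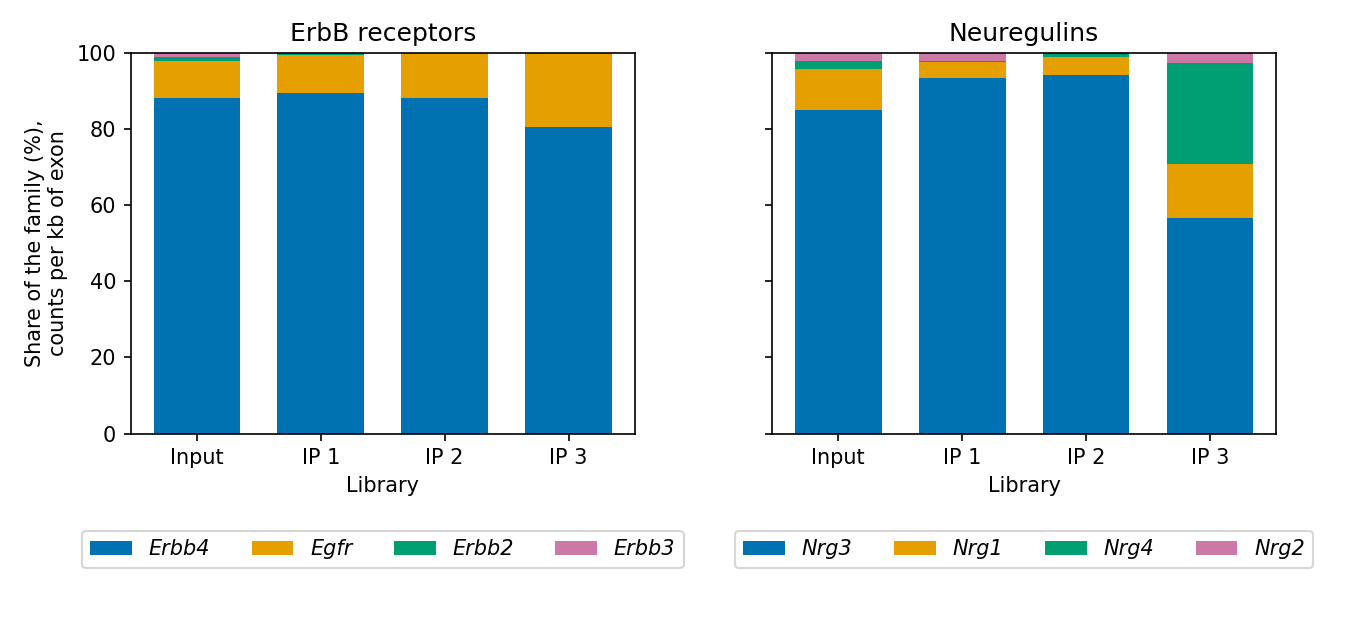
Share of each gene among the 4 receptors (left) and among the 4 neuregulins (right) in each library, in percent of counts per kb of exon. Erbb4 holds 80.6 to 89.4% of the receptors in every library, and Nrg3 holds 85.0% or more of the neuregulins except in IP 3, where it holds 56.7%.

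Over 4 libraries, likeness was measured as the Euclidean distance between the log2 ratios to the Input in the 3 IP libraries (0.5 CPM added), among 1637 genes with a mean level within 4-fold of Erbb4. The ratios of all genes share the 1 Input. Nearest to Erbb4 (2.44, 2.23 and 2.03 in IP 1, 2 and 3) was Tiam1, an exchange factor for Rac, at a distance of 0.26 (2.48, 2.12 and 2.26). Tmem130 (0.27), Gprasp1 (0.35), which encodes a protein that sorts G protein-coupled receptors, Vstm2a (0.35) and Rgs8 (0.39), a regulator of G-protein signalling, followed. Tiam1 measured 66.6 CPM in the Input library, against an IP mean of 329 ± 42.4 CPM. For Nrg3 the nearest of 6104 genes were Mtpap (0.056), Zfp182 (0.085), Ptp4a1 (0.096), Arl2bp (0.10) and Pias2 (0.10).

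The other genes of the pathway were taken from 5 lists by role. Of 91 genes 87 were tested and 0 passed by edgeR, DESeq2 or limma-voom. Among all 14636 genes these tools called 67, 181 and 51, so few that 0 of 87 is not a result about the pathway. At an unadjusted p under 0.05 by edgeR there were 4 (2 higher and 2 lower), while 4.43% of all genes tested reached that level. The median log2 fold was 0.12, beside 0.083 over all genes. In all 3 IP libraries 24 of the 91 lay above the Input and 22 below, beside 19.7% and 24.1% of all genes tested. The 22 include Areg, Epgn and Lrig3, which were too low to be tested. These counts are a description and show nothing particular to the pathway.

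Of 7 other ligands of the EGF family 4 were tested. Hbegf, which encodes a heparin-binding ligand of EGFR and ErbB4, measured 2.70 CPM in the Input library, against 3.75, 18.3 and 44.5 CPM in IP 1, 2 and 3 (log2 fold 3.03 ± 1.45, SE, edgeR adjusted p = 0.9999). All IP libraries lay above the Input, and IP 3 was the highest. Among the IP libraries IP 3 was also the highest for Egfr, Nrg1, Nrg2 and Nrg4. It was the lowest for Erbb4 and Nrg3, while Erbb2 was highest in IP 1. Tgfa, a ligand of EGFR, measured 26.5 CPM in the Input library, against 7.41, 4.28 and 19.8 CPM in the IP libraries. Btc, the gene of betacellulin, chosen after its values were seen, had 19 counts in the Input and 0 in all IP libraries.

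Of 13 genes of proteases that release these ligands or cut ErbB4, and of their partner proteins, all 13 were tested and the median log2 fold was 0.25. Bace1, which cuts Nrg1, measured 49.5 CPM in the Input library, against an IP mean of 59.0 ± 10.7 CPM (SD, n = 3). Aph1b, a subunit of gamma-secretase, measured 20.7 CPM in the Input library, against 19.0, 118 and 8.71 CPM in IP 1, 2 and 3, high in IP 2 alone.

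Among 19 adaptors and scaffold partners the median was 0.14. Dlg2, the gene of the synaptic scaffold PSD-93, measured 997 CPM in the Input library, against an IP mean of 1097 ± 164 CPM. Ncor1, a corepressor, was at 507 CPM and 928 ± 266 CPM (log2 fold 0.87 ± 0.39, SE, edgeR unadjusted p = 0.0366, adjusted p = 0.9999). Dlg4, the gene of PSD-95, which binds ErbB4 at synapses, was chosen after its values were seen, and measured 412 CPM in the Input library, against 191, 137 and 269 CPM in IP 1, 2 and 3. Its IP libraries all lay below the Input (log2 fold -1.05 ± 0.42, edgeR unadjusted p = 0.0229, adjusted p = 0.888).

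For 32 kinases, lipases and STATs downstream of the receptors log2 folds ran only from -0.84 to 1.08, with a median of 0.050. The kinase genes Prkcb (2591 CPM in the Input, 1955 ± 278 CPM in IP) and Gsk3b (688 CPM and 775 ± 41.4 CPM) were the most abundant.

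Of 20 inhibitors and degradation factors 19 were tested, with a median of 0.24. Nedd4, a ubiquitin ligase, measured 485 CPM in the Input library, against an IP mean of 883 ± 70.2 CPM (log2 fold 0.86 ± 0.36, SE, edgeR unadjusted p = 0.0264, adjusted p = 0.903). Spred1, an inhibitor of Ras signalling, was at 440.0 CPM and 222 ± 24.1 CPM (log2 fold -0.98 ± 0.38, unadjusted p = 0.0193, adjusted p = 0.832). All 3 IP libraries lay on the same side of the Input for both, without a call.

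**Figure D4:**
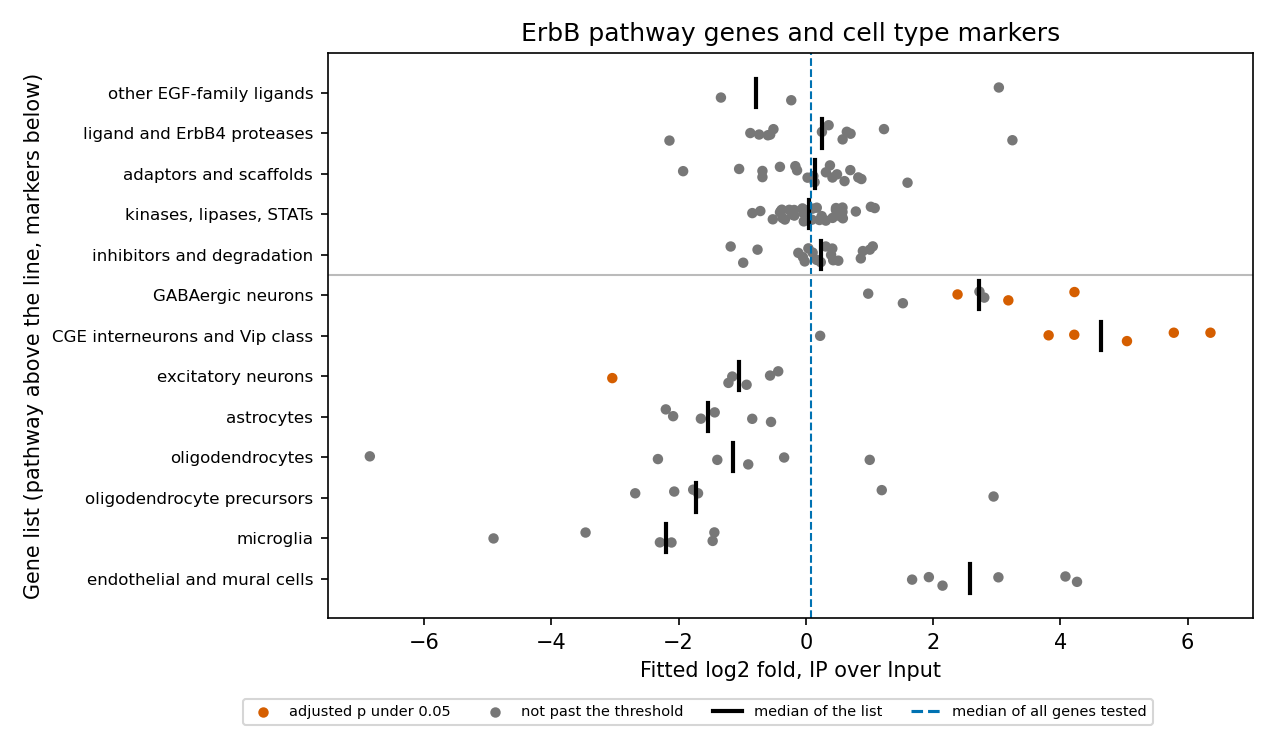
Fitted log2 fold of IP over Input for each tested gene of the ErbB pathway lists (above the line) and the cell type marker lists (below it), with the median of each list as a black bar and the median of all genes as a dashed line. Btc, at 0 counts in all IP libraries, is not drawn. The medians of the 4 larger pathway lists lie between 0.050 and 0.25, while that of the GABAergic markers is 2.73.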

How the data were processed

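The authors deposited, for each library, unnormalized read counts by gene, and the file headers name a gene identifier and a symbol column. STAR 2.0.0e and HTSeq are the tools, and mm10 the build, that the submitters' processing notes list. The counter, the annotation, strand and the treatment of multiply mapped reads were not given with certainty in the sources used here, so reads of genes that overlap on opposite strands may not have been told apart. The 9 genes without a symbol held up to 0.0221% of the counts of any library.

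Counts were analysed in R 4.3.3 with edgeR 4.0.16: filterByExpr (minimum count 10), which left 14636 genes, TMM scaling and the quasi-likelihood F test, two-sided, with Benjamini-Hochberg adjustment over all genes kept. The SE of a log2 fold was its size over the root of F. The lone Input gave no estimate of spread. Only the 3 IP libraries inform it, with 2 residual and 17.0 prior degrees of freedom, under the assumption that an Input varies as they do. A coefficient of 0.787 was estimated for the biological variation. No library was a copy of another (chi-square per degree of freedom of at least 84.7 for each pair).

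All 8 members passed the low-count filter, 4 of them at its level in every library. Exon lengths and positions came from GENCODE M21 (GRCm38, the assembly of mm10) and upstream sequences from RefSeq, in which 5 of the 8 had an entry. Alternatives were DESeq2 1.42.0, limma-voom (limma 3.58.1), other scalings (RLE, upper quartile, totals), a robust prior, dropping the low-count filter or raising it to 5 CPM on average, a stricter threshold and leaving out each IP library. Members and lists were chosen with earlier results of these data known. Named were all members and the 5 genes nearest in pattern. From each pathway list came any gene past the threshold and the 2 most abundant others. Of the first genes of the marker lists, Gad1 and Mog were named. The genes Dlg4, Btc, Opalin and Mag were added after their values were seen. Values of some first-named markers are given as list sums only.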

Additional observations from a re-analysis of the deposited data

How the results depend on the processing

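The call of Erbb4 held in all 11 alternative fits at a threshold of 0.05, all of which share the 1 Input. But its adjusted p of 0.0125 does not reach a threshold of 0.01. Across settings the number of genes past the threshold, 67, became 181 under DESeq2, 108 when no low-count filter was used, 39 at an adjusted p under 0.01 and 90 to 210 when each IP library was left out (210 without IP 1, 105 without IP 2). Egfr was called by DESeq2 (log2 fold 2.76) and without IP 1 (2.84), and lay at 2.49 to 2.86 when each IP library was left out. P-values of the fits that leave out an IP library assume more degrees of freedom than the main fit, so a lower one is not added support. The sign of uncalled members turned in some fits. Nrg4 had a log2 fold of -0.84 with limma-voom and of -2.29 to 2.75 when each IP library was left out. In the same fits Nrg3 ran from -0.45 to 0.017 and Nrg2 from -0.71 to 0.28. Erbb2 was at 0.14 without IP 2 and 0.075 without IP 3. Erbb2 did not pass the filter without IP 1, and Erbb2, Erbb3 and Nrg2 did not pass it at 5 CPM on average, so these fits gave no value for them. The cause was not tested. The pathway lists had 0 calls in each of the 11 fits. With library totals the log2 folds of all genes shifted by a median of -0.27, with upper-quartile factors by -0.22, with limma-voom by -0.12 and with the filter at 5 CPM on average by -0.11, and the log2 fold of Erbb4 was then 1.97, 2.03, 2.27 and 2.14. With 2 CPM added 4 of the 5 genes nearest to Erbb4 remained. No paired analysis was possible with only 1 Input. The title of that Input carries no replicate number, and whether it shares animals with an IP library is not known. Depth limits Erbb2, Erbb3 and Nrg2, with at most 34 counts in any library.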
